A study of Saccharomyces cerevisiae with 6 samples.

Results

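The yeast genes of sulfate assimilation and of methionine and cysteine metabolism were followed in 3 mutants that affect the TATA-binding protein (TBP). The set held 36 genes of the 6256 with a probe on the array. Probes for genes, not for controls, were chosen by gene name. IRC7, which has no gene name on the array, was matched by its systematic name, YFR055W, and ECM17 (YJR137C) is named MET5 in current annotation. All 36 genes had a value on all 6 arrays and entered the tests.

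Yeast takes up sulfate, activates and reduces it to sulfide, and joins the sulfide to a carbon chain made from aspartate to form homocysteine. Homocysteine is methylated to methionine, which feeds S-adenosylmethionine, the main methyl donor, or is turned into cysteine and glutathione. Most of these genes are known targets of the activator Met4, which does not bind DNA by itself and is brought to promoters by Cbf1 with Met28 or by Met31 and Met32. Met30, the substrate-binding subunit of a ubiquitin ligase, restrains Met4 when sulfur is plentiful.

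Mot1 is an ATPase that takes TBP off DNA, and the bypass strains carry an altered TBP on their plasmid, with MOT1 itself far below WT (values below). All 4 strains were derived from the parent AY138 with a plasmid, after selection on FOA, an agent used to select cells that have lost a URA3 plasmid: pAV20 in wild-type MOT1 (WT), pMOT244 in mot1-14, pTBP-Y185C in TBP-Y185C and pTBP-F207L in TBP-F207L. No further genotype of AY138 is given in the labels, nor whether a mutant's arrays came from separate cultures. Cells were grown in rich medium (YPD) at 30 °C to an optical density near 1.0. Each mutant was hybridised against WT on 2 arrays, with the mutant in Cy5 on array 1 and in Cy3 on array 2, and each mutant's pair of arrays lay on a slide of its own, so that slide and mutant cannot be told apart.

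Values below are log2 ratios of mutant over WT unless a fold is named. Fitted values, standard errors (SE) and adjusted p-values come from a single limma model over the 6 arrays, with Benjamini-Hochberg adjustment over 6232 genes and a threshold of 0.05. The SE leaves out a dye effect that the 3 pairs of arrays share, and WT counted as 1 control sample without a spread of its own. With 2 arrays per mutant, p-values measure the spread left between arrays after that dye effect, pooled over the 3 mutants. This spread may be technical. A ratio from a bulk culture cannot tell a change in every cell from a change in some cells. The strain labels were checked on MOT1, with values of 2.17, -3.51 and -2.58 for mot1-14, TBP-Y185C and TBP-F207L, and on SPT15, the TBP gene, at -0.36, 4.08 and 3.63. The alleles are on plasmids, so these values include the strain construction. Median signals were 6.74 to 22.7 times the local background in the channels of the 6 arrays.

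More of the sulfur genes rose than fell in both bypass strains, and in mot1-14 they were spread around 0. In mot1-14, 13 of the 36 genes rose and 11 fell, and the median ratio was 0.04. Of all genes tested, 72.1% passed in mot1-14, with 37.2% higher and 34.9% lower, so the 24 called sulfur genes (66.7%) were no more than this background. In TBP-Y185C 24 rose and 9 fell, with a median of 0.47, against 41.0% of all genes higher and 38.8% lower there. In TBP-F207L 24 rose and 11 fell, with a median of 0.34, against 40.3% and 38.8% of all genes. The share of sulfur genes that rose was thus 66.7% in each bypass strain and 36.1% in mot1-14. The medians over all genes tested lay within 0.01 of 0 in each comparison.

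Changes of 2-fold or more were fewer. MET14 and MET28 rose 2-fold or more in mot1-14, 2 of 36 genes beside 4.44% of all genes. In TBP-Y185C 7 genes did so (19.4%, beside 6.42% of all genes), namely MET28, MET14, MET17, MET3, MET32, MET1 and MET13. In TBP-F207L 6 did so (16.7%, beside 4.97%), namely MET28, MET14, MET1, MET17, MET3 and HOM2. IRC7 was the single gene that fell 2-fold or more, in both bypass strains, where 1.96% and 2.34% of all genes did. With a call that needed a deposited p-value under 0.01 on both arrays, 6 genes were higher and 2 lower for mot1-14, 17 and 4 for TBP-Y185C, and 10 and 5 for TBP-F207L, when 24.6%, 33.0% and 22.4% of all genes were called.

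**Figure D1:**
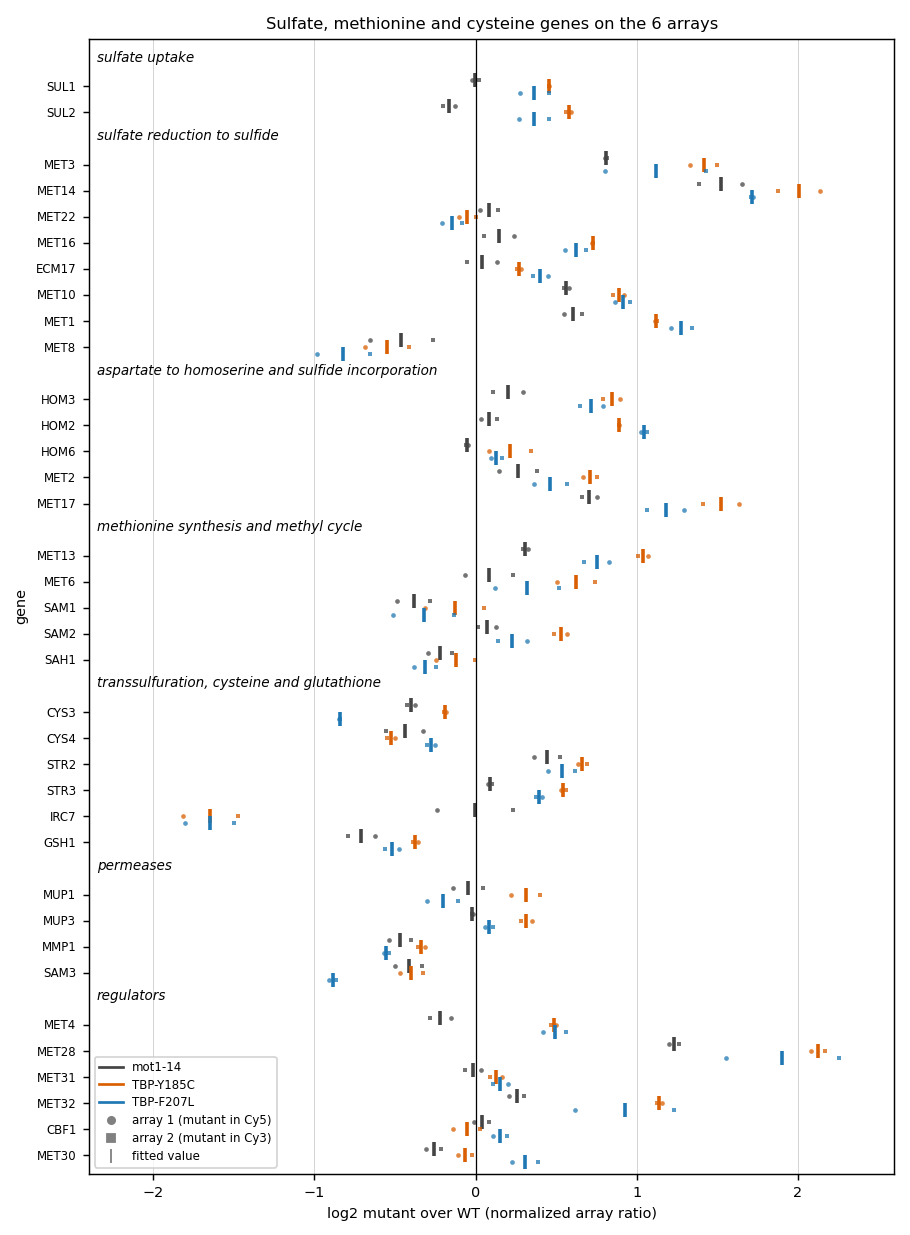
The log2 ratio of mutant over WT (horizontal axis) is plotted for each of the 36 genes, grouped by role, with circles for array 1, squares for array 2 and a bar for the fitted value of each mutant. MET14 and MET28 lay right of 1 on all 6 arrays, and IRC7 lay near -1.65 in both bypass strains and near 0 in mot1-14.

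**Figure D2:**
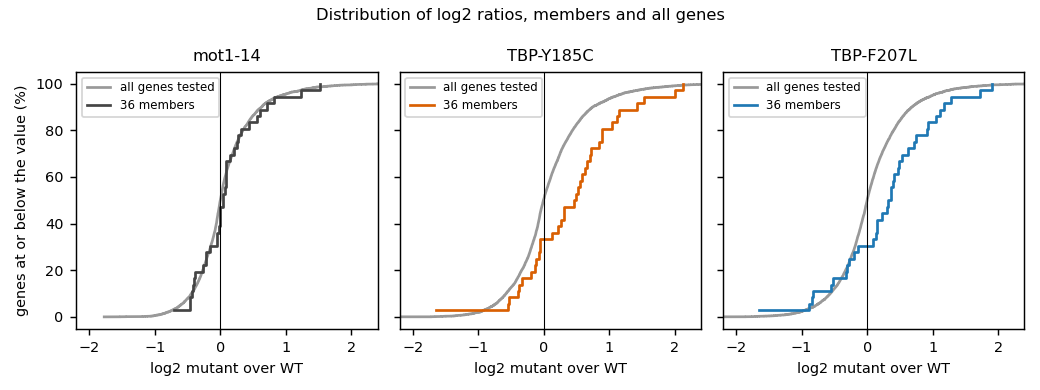
Cumulative shares of genes (percent) are drawn against the log2 ratio for the 36 sulfur genes (coloured steps) and all 6232 genes tested (grey), with a panel per mutant. The coloured curve runs along the grey one in mot1-14 (median 0.04) and to its right in TBP-Y185C (median 0.47) and TBP-F207L (median 0.34).

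The sulfate permease genes rose in both bypass strains. SUL2 (YLR092W) was at -0.13 and -0.20 on the mot1-14 arrays, 0.60 and 0.56 on the TBP-Y185C arrays, and 0.27 and 0.46 on the TBP-F207L arrays. The mot1-14 arrays were below WT and all 4 bypass arrays above it, with no overlap. Fitted values were -0.16 for mot1-14 (SE 0.05, adjusted p = 0.0196), 0.58 for TBP-Y185C (adjusted p = 2.78e-05) and 0.36 for TBP-F207L (adjusted p = 0.000348). The mot1-14 value did not pass with median centring (adjusted p = 0.183) or without array 2 (-0.09, adjusted p = 0.340). SUL1 (YBR294W) was at -0.02 and 0.02 on the mot1-14 arrays, 0.46 and 0.45 on the TBP-Y185C pair, and 0.27 and 0.46 on the TBP-F207L pair. Its WT signal was not well above background on the mot1-14 and TBP-Y185C arrays and on 1 of the 2 TBP-F207L arrays. The rise in TBP-Y185C is thus given, for this fit alone, as at least 1.36-fold. This bound was set against the lowest WT signal well above background or the probe's own. The adjusted p of 3.88e-05 belongs to the fitted ratio of 0.46 for TBP-Y185C, not to the bound. With the deposited log ratios SUL1 was at 3.20 for TBP-Y185C and 1.81 for TBP-F207L, and with median centring in place of loess it was at 0.12 and 0.16 and did not pass.

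Most genes of the enzymes that activate and reduce sulfate rose. Of the 8 genes of this step, 5 rose and 1 fell in mot1-14, against 6 and 1 for TBP-Y185C and 6 and 2 for TBP-F207L, and the medians were 0.35, 0.81 and 0.77. The shares that rose, 62.5%, 75% and 75%, stood beside 37.2%, 41.0% and 40.3% of all genes, and these are counts over few genes. MET14 (YKL001C), the adenylylsulfate kinase, was at 1.66 and 1.39 on the mot1-14 arrays, 2.14 and 1.88 on the TBP-Y185C pair, and 1.72 and 1.71 on the TBP-F207L pair. All 6 arrays were high, and the TBP-Y185C arrays lay above all others. The fit put MET14 at 2.87-fold WT for mot1-14 (log2 1.52, SE 0.05, adjusted p = 6.80e-07), 4.02-fold for TBP-Y185C (log2 2.01, adjusted p = 1.82e-07) and 3.29-fold for TBP-F207L (log2 1.72, adjusted p = 3.16e-07).

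MET3 (YJR010W), the ATP sulfurylase that acts before Met14, was at 0.81 on both mot1-14 arrays, 1.33 and 1.502 on the TBP-Y185C pair, and 0.81 and 1.43 on the TBP-F207L pair. The TBP-F207L arrays reached from the mot1-14 level to within the TBP-Y185C range. The fitted values were 0.81 (SE 0.09, adjusted p = 0.000170), 1.42 (adjusted p = 7.24e-06) and 1.12 (adjusted p = 2.59e-05). MET1 (YKR069W), a methyltransferase of siroheme synthesis, was at 0.55 and 0.66 on the mot1-14 arrays, 1.12 and 1.13 on the TBP-Y185C pair, and 1.21 and 1.34 on the TBP-F207L pair. The mutants did not overlap, and the fit gave 0.61 (SE 0.04, adjusted p = 7.05e-06), 1.12 (adjusted p = 3.47e-07) and 1.28 (adjusted p = 2.77e-07).

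The other reduction genes moved less. MET10, the alpha subunit of sulfite reductase, rose in all 3 mutants, to 0.56, 0.89 and 0.91 in mot1-14, TBP-Y185C and TBP-F207L. ECM17, its beta subunit, was at 0.04 in mot1-14 (adjusted p = 0.414) and rose to 0.27 and 0.40 in the bypass strains. MET16, the phosphoadenylylsulfate reductase, rose to 0.73 and 0.62 in the bypass strains. Its mot1-14 value of 0.14 (adjusted p = 0.0455) did not pass with the deposited log ratios (adjusted p = 0.124), without mot1-14 array 1 (0.017, adjusted p = 0.853) or without either TBP-Y185C array (adjusted p = 0.0716). MET8, which makes siroheme, the cofactor of sulfite reductase, fell in all 3 mutants, to -0.46, -0.55 and -0.82, although MET1 of the same branch rose. MET22, a phosphatase that clears a by-product of the reductase step, was at 0.08, -0.05 and -0.14. It passed in TBP-F207L (adjusted p = 0.00452), but not with median centring (adjusted p = 0.448) or without the dye intercept (adjusted p = 0.0821). Its TBP-Y185C value passed with the deposited log ratios (-0.13, adjusted p = 0.0235). Its mot1-14 value (adjusted p = 0.0512) passed with the strict filter on dim probes (adjusted p = 0.0479) and without either TBP-F207L array (adjusted p = 0.0484).

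Genes that make the carbon chain and take in sulfide rose in both bypass strains, 5 of 5 in each. The medians were 0.85 in TBP-Y185C and 0.72 in TBP-F207L, while 3 of 5 rose in mot1-14 (median 0.20). Of all genes, 41.0%, 40.3% and 37.2% were higher in TBP-Y185C, TBP-F207L and mot1-14, and the group is small. MET17 (YLR303W), which joins sulfide to O-acetylhomoserine, was at 0.75 and 0.66 on the mot1-14 arrays, 1.64 and 1.41 on the TBP-Y185C pair, and 1.29 and 1.07 on the TBP-F207L pair. The mutants did not overlap, in the order mot1-14, TBP-F207L, TBP-Y185C. The fit put it at 1.63-fold WT for mot1-14 (log2 0.71, SE 0.04, adjusted p = 4.48e-06), 2.87-fold for TBP-Y185C (log2 1.52, adjusted p = 1.82e-07) and 2.27-fold for TBP-F207L (log2 1.18, adjusted p = 4.47e-07).

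HOM2 (YDR158W), aspartate semialdehyde dehydrogenase, was at 0.03 and 0.14 on the mot1-14 arrays, 0.89 on both TBP-Y185C arrays, and 1.03 and 1.06 on the TBP-F207L pair. The mot1-14 arrays were near WT and the bypass arrays well apart from them. Its rise was 0.89 for TBP-Y185C (SE 0.04, adjusted p = 7.53e-07) and 1.05 for TBP-F207L (adjusted p = 5.05e-07), with 0.08 for mot1-14 (adjusted p = 0.0654). With median centring the TBP-F207L value was 0.67. HOM3, aspartate kinase, rose by 0.20, 0.85 and 0.72 in mot1-14, TBP-Y185C and TBP-F207L, and MET2, homoserine acetyltransferase, by 0.26, 0.71 and 0.46. The HOM3 rise in mot1-14 did not pass with median centring (adjusted p = 0.0579) or without the dye intercept (adjusted p = 0.0528), and MET2 was at 0.41 there with the deposited log ratios. HOM6, homoserine dehydrogenase, was at -0.05, 0.21 and 0.13. Its TBP-Y185C value did not pass without array 2 of that mutant (0.10, adjusted p = 0.190), and its TBP-F207L value (adjusted p = 0.0474) did not pass when either array of that mutant was left out (adjusted p = 0.212 and 0.0638) and turned to -0.13 with median centring.

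Methionine synthesis and the methyl cycle divided. MET13 (YGL125W), a methylenetetrahydrofolate reductase that supplies the methyl group, was at 0.33 and 0.29 on the mot1-14 arrays, 1.07 and 1.01 on the TBP-Y185C pair, and 0.83 and 0.67 on the TBP-F207L pair. The mutants did not overlap in this gene either. The fit gave 0.31 (SE 0.04, adjusted p = 0.000197), 1.04 (adjusted p = 4.86e-07) and 0.75 (adjusted p = 1.99e-06), and the deposited log ratios gave 0.67, 1.60 and 1.42. MET6, the methionine synthase, was at 0.09 in mot1-14 (adjusted p = 0.0839) and rose to 0.62 in TBP-Y185C and 0.32 in TBP-F207L. Its mot1-14 value passed without either TBP-F207L array (adjusted p = 0.0452), and its TBP-F207L rise did not pass without the dye intercept (adjusted p = 0.0608). SAM1 and SAM2 encode S-adenosylmethionine synthetases so alike that their probes may share signal. SAM1 fell to -0.38, -0.13 and -0.32 in mot1-14, TBP-Y185C and TBP-F207L, while SAM2 was at 0.07 (adjusted p = 0.103), 0.53 and 0.23 and rose in the bypass strains. The SAM1 fall in TBP-Y185C (adjusted p = 0.0234) did not pass with the deposited log ratios (adjusted p = 0.0769) or when either array of that mutant was left out (adjusted p = 0.286 and 0.0747), but passed with median centring (-0.22, adjusted p = 0.00996). In TBP-F207L SAM1 was at -0.58 with median centring, and its fall did not pass without the dye intercept (adjusted p = 0.0663). SAH1, S-adenosylhomocysteine hydrolase, was at -0.22, -0.12 and -0.31 and passed in all 3 mutants. The TBP-Y185C value did not pass without array 1 of that mutant (-0.075, adjusted p = 0.278) or with median centring (adjusted p = 0.271), and neither it nor the mot1-14 value passed without the dye intercept (adjusted p = 0.220 and 0.0575).

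Genes of transsulfuration, cysteine and glutathione moved in both directions. Of 6 genes, 2 rose and 3 fell in mot1-14 (33.3% and 50%, beside 37.2% and 34.9% of all genes). In each bypass strain 2 rose and 4 fell (33.3% and 66.7%), beside 41.0% and 38.8% of all genes for TBP-Y185C and 40.3% and 38.8% for TBP-F207L. IRC7 (YFR055W), a cysteine beta-lyase homolog, was at -0.24 and 0.23 on the mot1-14 arrays, -1.82 and -1.47 on the TBP-Y185C pair, and -1.80 and -1.50 on the TBP-F207L pair. The mot1-14 arrays lay on both sides of WT and all 4 bypass arrays far below it. In the bypass strains IRC7 was 3.13-fold (TBP-Y185C, log2 -1.65, SE 0.04) and 3.14-fold (TBP-F207L, log2 -1.65) lower than WT (adjusted p = 1.82e-07 for each), and at -0.01 in mot1-14 (adjusted p = 0.905, 95% confidence interval -0.10 to 0.09).

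Both directions of the exchange between homocysteine and cysteine were on the array. STR2, cystathionine gamma-synthase, rose by 0.44, 0.66 and 0.53 in mot1-14, TBP-Y185C and TBP-F207L, and STR3, a cystathionine beta-lyase, by 0.09 (adjusted p = 0.0450), 0.55 and 0.40. With the deposited log ratios STR3 was at 1.12 for TBP-Y185C, 0.74 for TBP-F207L and 0.28 for mot1-14, where it passed (adjusted p = 0.00257). Its mot1-14 value did not pass with median centring (adjusted p = 0.153), when either mot1-14 array was left out (adjusted p = 0.217 and 0.296) or without either TBP-Y185C array (adjusted p = 0.0660). These enzymes lead from cysteine to homocysteine. CYS4, cystathionine beta-synthase, and CYS3, cystathionine gamma-lyase, which lead from homocysteine to cysteine, fell in every mutant. CYS4 was at -0.44, -0.53 and -0.28 (-0.48 for TBP-F207L with median centring), and CYS3 at -0.40, -0.19 and -0.84. The CYS3 fall in TBP-Y185C did not pass with median centring (adjusted p = 0.0796). GSH1, which catalyses the first step of glutathione synthesis, fell to -0.71, -0.37 and -0.52, and its value in mot1-14 was the lowest of the 36 genes there.

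The permease genes were low or mixed. SAM3, the S-adenosylmethionine permease, fell to -0.42, -0.40 and -0.89 in mot1-14, TBP-Y185C and TBP-F207L. MMP1, the S-methylmethionine permease, fell to -0.47, -0.34 and -0.55. MUP1, the high-affinity methionine permease, was at -0.05 in mot1-14 (adjusted p = 0.222), rose to 0.31 in TBP-Y185C (adjusted p = 7.75e-05) and fell to -0.21 in TBP-F207L (adjusted p = 0.000761, or 0.0689 without the dye intercept). Its arrays were 0.22 and 0.40 for TBP-Y185C and -0.30 and -0.11 for TBP-F207L, and did not overlap. MUP3, a low-affinity permease, rose by 0.32 in TBP-Y185C and was at -0.02 in mot1-14 (adjusted p = 0.656) and 0.08 in TBP-F207L (adjusted p = 0.0654).

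Among the regulators, MET28 moved most in each mutant, and MET32 came next in the bypass strains. MET28 (YIR017C), a basic leucine zipper protein that acts with Cbf1 and Met4, was at 1.20 and 1.26 on the mot1-14 arrays, 2.08 and 2.17 on the TBP-Y185C pair, and 1.55 and 2.25 on the TBP-F207L pair. All 6 arrays were high, and both bypass strains lay above mot1-14 without overlap. The fit gave 2.34-fold WT for mot1-14 (log2 1.23, SE 0.10, adjusted p = 3.54e-05), 4.37-fold for TBP-Y185C (log2 2.13, adjusted p = 1.81e-06) and 3.74-fold for TBP-F207L (log2 1.90, adjusted p = 3.30e-06). MET28 was the highest of the 36 genes in both bypass strains in this fit. With the deposited log ratios SUL1 was at 3.20 for TBP-Y185C.

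MET32 (YDR253C), a zinc-finger protein that brings Met4 to DNA, was at 0.21 and 0.30 on the mot1-14 arrays, 1.15 and 1.13 on the TBP-Y185C pair, and 0.62 and 1.23 on the TBP-F207L pair. The mot1-14 arrays were low, the TBP-Y185C arrays nearly equal and the TBP-F207L arrays far apart. Its rises of 1.14 for TBP-Y185C (SE 0.10, adjusted p = 2.91e-05) and 0.93 for TBP-F207L (adjusted p = 9.64e-05) passed, and the deposited log ratios put the former at 1.79. The mot1-14 value of 0.26 had an adjusted p of 0.0491 and did not pass without either mot1-14 array (adjusted p = 0.425 without array 1 and 0.0826 without array 2) or with the deposited log ratios (0.52, adjusted p = 0.105). MET31, the paralog of MET32, was at 0.04 and -0.06, then 0.17 and 0.09, then 0.20 and 0.11 on the arrays of mot1-14, TBP-Y185C and TBP-F207L. Its fitted rises were 0.13 for TBP-Y185C (adjusted p = 0.00831) and 0.15 for TBP-F207L (adjusted p = 0.00331), with -0.01 for mot1-14 (adjusted p = 0.716). The TBP-Y185C rise did not pass with the deposited log ratios (adjusted p = 0.146) or when either array of that mutant was left out (adjusted p = 0.0770 and 0.101), and the TBP-F207L rise did not without the dye intercept (adjusted p = 0.0525). Median centring put both at 0.25.

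MET4 (YNL103W), the activator itself, was at -0.16 and -0.28 on the mot1-14 arrays, 0.50 and 0.47 on the TBP-Y185C pair, and 0.42 and 0.56 on the TBP-F207L pair. The mot1-14 arrays were below WT and the bypass arrays above it. MET4 fell by 0.22 in mot1-14 (SE 0.05, adjusted p = 0.00543). It rose by 0.48 for TBP-Y185C (adjusted p = 7.36e-05) and 0.49 for TBP-F207L (adjusted p = 7.30e-05). Without mot1-14 array 2 its mot1-14 value was -0.13 (adjusted p = 0.165). MET30 (YIL046W), the subunit that restrains Met4, was at -0.30 and -0.22 on the mot1-14 arrays, -0.11 and -0.02 on the TBP-Y185C pair, and 0.23 and 0.39 on the TBP-F207L pair. The mutants were in this order without overlap. MET30 fell by 0.26 in mot1-14 (SE 0.03, adjusted p = 0.000358), was at -0.07 in TBP-Y185C (adjusted p = 0.116, or 0.0249 with the deposited log ratios, which put it at -0.14) and rose by 0.31 in TBP-F207L (adjusted p = 0.000126). CBF1 (YJR060W), which binds DNA upstream of many of these genes, was at -0.01 and 0.09, then -0.14 and 0.03, then 0.11 and 0.19 on the arrays of mot1-14, TBP-Y185C and TBP-F207L. It passed in TBP-F207L (0.15, adjusted p = 0.00501), but not without array 1 of that mutant (0.13, adjusted p = 0.0566) or without the dye intercept (adjusted p = 0.0794), and was at 0.26 with the deposited log ratios.

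The mutants were compared with each other to ask which genes differ between the bypass strains and mot1-14. These differences come from the same fit, and the comparisons share arrays, so their counts are not independent. In TBP-Y185C 28 of the 36 sulfur genes were higher than in mot1-14 and 2 were lower, with a median difference of 0.35, beside 49.1% of all genes called, 25.7% higher and 23.4% lower. In TBP-F207L 20 were higher than in mot1-14 and 6 lower, with a median difference of 0.20, beside 57.8% called, 28.8% higher and 29.0% lower. Without a term for the dye the counts higher were 16 and 13, when 15.4% and 25.2% of all genes passed in either direction.

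IRC7 had the largest difference from mot1-14 in either bypass strain, -1.64 for TBP-Y185C (SE 0.06, adjusted p = 6.50e-06) and -1.65 for TBP-F207L (SE 0.06, adjusted p = 5.12e-06), and no other gene of the 36 differed by 1 or more between any pair of mutants in this fit. With the deposited log ratios SUL1, SUL2, MET28 and MET32 also differed by 1 or more between TBP-Y185C and mot1-14. SUL1, with a difference of 0.46 in the fit, was then at 2.605 (adjusted p = 0.0499), and with median centring at 0.13 (adjusted p = 0.367). Of all genes, 0.594% and 0.497% were 2-fold or more higher than in mot1-14 in these strains and 0.578% and 0.979% lower, and between the bypass strains 0.0481% were higher and 0.160% lower. Among genes higher in TBP-Y185C than in mot1-14, MET28 differed by 0.90, MET32 by 0.88, MET17 by 0.82, HOM2 by 0.80, SUL2 by 0.74, MET13 by 0.73 and MET4 by 0.70. In TBP-F207L against mot1-14, HOM2 differed by 0.96, MET4 by 0.71, MET28, MET32 and MET1 by 0.67 each, and MET30 by 0.57. Without TBP-F207L array 2 the MET28 and MET32 differences were 0.36 and 0.38, and without mot1-14 array 2 that of MET28 did not pass (adjusted p = 0.0537). Neither passed with the deposited log ratios (adjusted p = 0.0797 for MET28 and 0.0987 for MET32) or without the dye intercept (adjusted p = 0.0690 and 0.0505). MET14 differed from mot1-14 by 0.48 in TBP-Y185C (adjusted p = 0.00197, or 0.0524 without the dye intercept). In TBP-F207L it differed by 0.19, which did not pass (adjusted p = 0.0536, 95% confidence interval 0.02 to 0.36). This difference passed with median centring (0.28, adjusted p = 0.0314) and with the strict filter on dim probes (adjusted p = 0.0488). It was 0.32 without TBP-F207L array 1. CYS3 differed from mot1-14 in opposite directions, 0.21 for TBP-Y185C, lost with the deposited log ratios (adjusted p = 0.0537) and without either TBP-Y185C array (adjusted p = 0.0659 and 0.0615) or mot1-14 array 2 (adjusted p = 0.0915), and -0.45 for TBP-F207L.

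Between the bypass strains, 16 sulfur genes were lower in TBP-F207L than in TBP-Y185C and 4 were higher, with a median difference of -0.17, beside 37.2% of all genes called, 21.8% lower and 15.4% higher. CYS3 (-0.65, SE 0.05, adjusted p = 0.000573), MUP1 (-0.52, adjusted p = 0.000855) and SAM3 (-0.49, adjusted p = 0.00134) had the largest differences. All 5 genes of methionine synthesis and the methyl cycle and all 4 permease genes named here passed in this direction in the main fit. Among them were MET13 at -0.29, MET6 at -0.30 and SAM2 at -0.30. With the deposited log ratios MET13 (-0.18, adjusted p = 0.539), SAM1 (adjusted p = 0.105), SAH1 (adjusted p = 0.0660), MUP3 (adjusted p = 0.0584) and MMP1 (adjusted p = 0.110) did not pass. None of the genes of these groups passed without the dye intercept. The 4 genes higher in TBP-F207L were MET30 at 0.37, CYS4 at 0.25, CBF1 at 0.21 and HOM2 at 0.16. CYS4, CBF1 and HOM2 did not pass when either TBP-Y185C array was left out (highest adjusted p = 0.241), and HOM2 turned to -0.0397 with median centring. IRC7 (interval -0.14 to 0.13), MET4 (-0.16 to 0.17) and MET10 (-0.10 to 0.16) showed no difference that passed, and MET28, with -0.57 to 0.12, had a wider interval. Without TBP-F207L array 2 the differences of MET28 (-0.53, adjusted p = 7.34e-05) and MET32 (-0.51, adjusted p = 0.000156) passed. The count of 16 was smaller when either TBP-Y185C array was left out, and so was the share of all genes that passed. The count was 9 with the deposited log ratios and 1 without a term for the dye. Without that term 19 of the 20 calls were lost, when 1.85% of all genes passed in either direction, so the loss was not particular to these genes. With the deposited log ratios 22.6% of all genes passed.

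**Figure D3:**
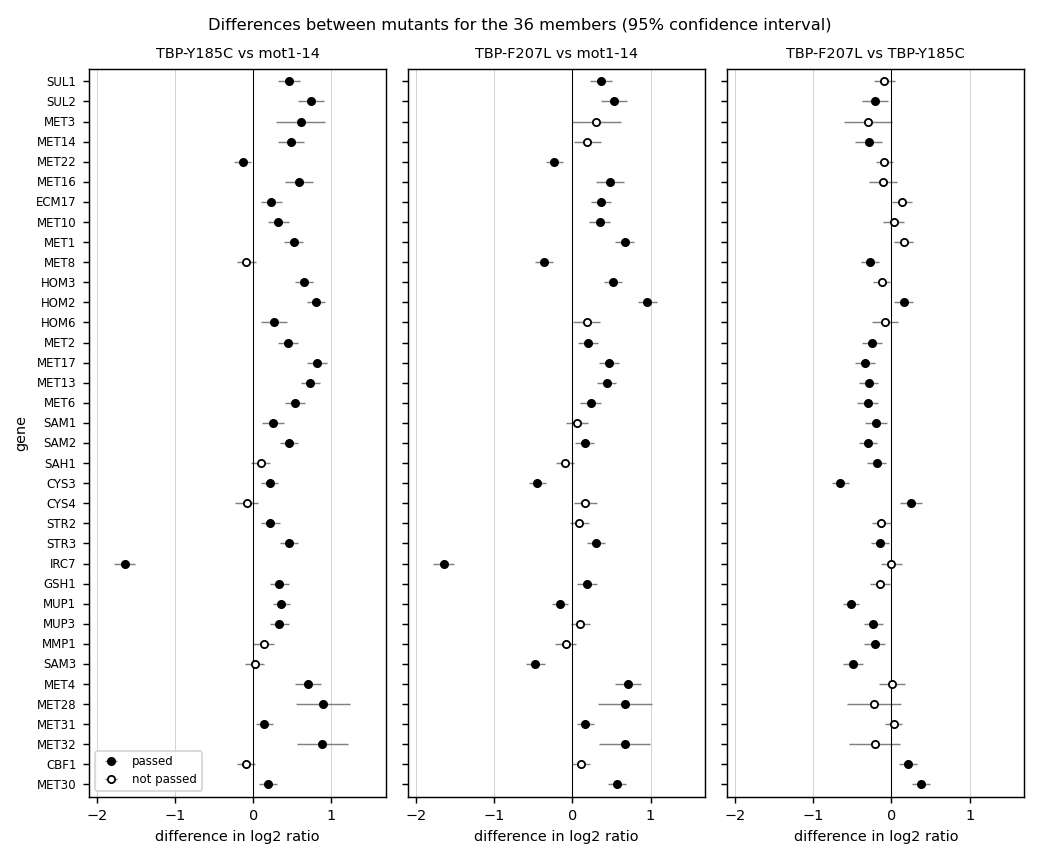
Differences in log2 ratio between mutants are plotted for the 36 genes with 95% confidence intervals, filled where the difference passed the test. Most points lie right of 0 in the panels against mot1-14 (28 and 20 genes higher), IRC7 lies near -1.65 in both, and most points lie left of 0 for TBP-F207L against TBP-Y185C.

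A list of 25 other genes of sulfur metabolism, outside the set, was also examined. In mot1-14, 9 rose and 12 fell (84.0% called, median -0.09). The bypass strains had 10 and 13 (TBP-Y185C, 92.0%, median -0.13) and 9 and 14 (TBP-F207L, 92.0%, median -0.24), beside 72.1%, 79.7% and 79.1% of all genes called. The shares that rose, 36%, 40% and 36%, were near those of all genes (37.2%, 41.0% and 40.3%), and the shares that fell were 48%, 52% and 56%, beside 34.9%, 38.8% and 38.8%. JLP1, a dioxygenase that releases sulfite from sulfonates, was at 0.75 and 0.86 on the mot1-14 arrays, 1.83 and 1.95 on the TBP-Y185C pair, and 1.08 and 1.57 on the TBP-F207L pair. Its bypass arrays lay above the mot1-14 arrays. JLP1 rose in each mutant, with fitted values of 0.81 (SE 0.07, adjusted p = 3.42e-05), 1.89 (adjusted p = 5.01e-07) and 1.33 (adjusted p = 2.47e-06).

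SSU1 and MXR2 had higher fitted values in mot1-14 than in the bypass strains. SSU1, the sulfite exporter, rose by 1.43, 0.82 and 0.99 in mot1-14, TBP-Y185C and TBP-F207L, and was lower in both bypass strains than in mot1-14, by differences of -0.61 (adjusted p = 0.000228) and -0.44 (adjusted p = 0.000487). MXR2, a mitochondrial methionine sulfoxide reductase, rose by 1.58, 1.37 and 1.26, with differences from mot1-14 of -0.21 (adjusted p = 0.0315) and -0.32 (adjusted p = 0.00566). Its arrays were at 1.87 and 1.29 for mot1-14, 1.58 and 1.16 for TBP-Y185C, and 1.44 and 1.09 for TBP-F207L. The mutants thus overlapped in MXR2, though mot1-14 was the highest among arrays with the same dye orientation. ADO1, the adenosine kinase that clears adenosine from the methyl cycle, rose by 0.59, 1.17 and 0.71.

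Glutathione synthesis and methionine salvage, which recovers methionine from methylthioadenosine, were mostly lower. GSH2, glutathione synthetase, fell to -0.62, -1.22 and -0.93 in mot1-14, TBP-Y185C and TBP-F207L, beside the falls of GSH1. MRI1 and MDE1 of the salvage pathway fell too, MRI1 to -0.57, -1.04 and -0.95 and MDE1 to -0.27, -0.64 and -1.02, whereas ADI1, a dioxygenase of the same pathway, rose by 0.76, 0.96 and 1.04. SAM4, which methylates homocysteine with S-adenosylmethionine, fell to -1.02, -1.14 and -1.03. TRR1, the thioredoxin reductase whose substrate thioredoxin is the electron donor of Met16, fell to -0.60, -0.85 and -1.03.

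**Figure D4:**
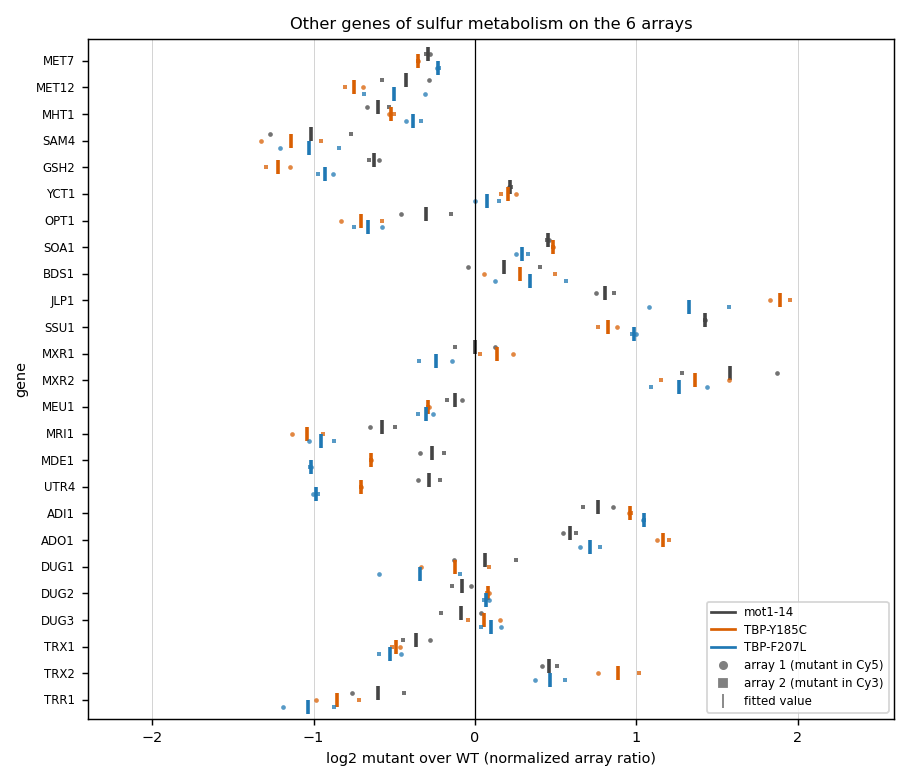
The log2 ratio of mutant over WT is plotted for the 25 other genes of sulfur metabolism, with circles for array 1, squares for array 2 and a bar for the fitted value of each mutant. Among others, JLP1, MXR2, SSU1 and ADI1 lie to the right, and SAM4, GSH2, MRI1 and TRR1 to the left in every mutant.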

How the data were processed

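The 6 oligonucleotide arrays were scanned and processed by the authors with Agilent Feature Extraction 7.5.1, per the file headers. The deposited files give mean and local background intensity per channel without scaling, processed intensity after spatial detrending and dye normalization, a log10 ratio of red over green and its p-value, per the file headers. Set against these files, the deposited series table held log2 of red over green. For this check the scanner log ratios of a probe's unmarked spots were averaged with weights from their deposited errors. The series table lay within 2e-04 of these averages for 100% of the probes on each array. Its direction is thus red over green, not the mutant over WT named in the series' text, and its columns were left uncentred (medians -0.0258, 0.0188, -0.0227, 0.0247, -0.0034 and 0.0203). Arrays were turned by the dyes in the labels.

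Mean intensities were corrected by normexp (offset 50) and normalized by loess in limma 3.58.1 (R 4.3.3), with the 544 control spots at weight 0. Spots marked as outliers were dropped, at most 3.22% of an array, and spots of a probe were averaged. A probe was tested if at least 2 arrays had it well above background in a channel, as for 6232 of 6256. The model had 3 mutant coefficients, whose sign followed the dye orientation, and a dye intercept, with 2 residual and 4.81 prior degrees of freedom. It was tested on simulated data.

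The 36 genes, role groups, the 25 other genes and the tests were chosen with earlier results of these data known. Members that passed with an absolute log2 value of at least 1 in a mutant, and the 6 regulators, are given array by array. Other members were to be named by difference between mutants of at least 1, but all are given with their values, as chosen after seeing them. In the list of other genes those at 1 or more are named. Alternatives were the deposited and series values, no background correction, median centring, other filters, no dye intercept, leaving out each array, and a fold of at least 1.5. The call on deposited p-values was added after seeing the data. Promoter motifs were planned, but no sequence was used here.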

Additional observations from a re-analysis of the deposited data

Results flagged for a closer look

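For 4 of the 36 genes, mutants moved in opposite directions from WT, each past the threshold, and the difference itself passed. Of all genes, 72.1%, 79.7% and 79.1% passed against WT in mot1-14, TBP-Y185C and TBP-F207L. The share of all genes that met the rule of opposite directions is not given, so the count of 4 cannot be set against it. SUL2 was higher in TBP-Y185C than in mot1-14 by 0.74 and higher in TBP-F207L than in mot1-14 by 0.53. MET4 was higher by 0.70 and 0.71 in the same comparisons. MET30 was higher in TBP-F207L than in mot1-14 by 0.57. MUP1 was lower in TBP-F207L than in TBP-Y185C by a difference of -0.52. The mot1-14 falls of SUL2 and MET4 did not pass without array 2 of that mutant. With 2 arrays per mutant, no group was large enough to look for outlying arrays.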

How the results depend on the processing

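Precision is limited by having 2 arrays per mutant, and WT spread and slide were not separable from the mutants. Over all alternatives the median ratio of the 36 genes ran from 0.0063 to 0.048 for mot1-14, 0.42 to 0.51 for TBP-Y185C, and 0.27 to 0.37 for TBP-F207L. Counts against WT stayed within 1.5 times under each alternative but 2. With a fold of at least 1.5 required, 5 were higher and 1 lower for mot1-14, 14 and 1 for TBP-Y185C, and 11 and 4 for TBP-F207L. The share of all genes at this fold is not given, here or between mutants, so these counts have no background beside them. With the deposited p-values the counts were 6 and 2, 17 and 4, and 10 and 5, when 24.6%, 33.0% and 22.4% of all genes were called.

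Counts between mutants moved more, and the cause was not tested. TBP-Y185C against mot1-14 had 16 higher and 1 lower without a dye intercept, when 15.4% of all genes passed, and 9 and 1 with the fold of 1.5. The count of 2 lower was 1 with the deposited log ratios, the series values, no background correction or median centring. In these settings 37.6%, 38.4%, 43.3% and 37.9% of all genes passed in this comparison, beside 49.1% in the main fit. The count did not rise when an array was left out. TBP-F207L against mot1-14 had 13 higher and 3 lower without a dye intercept, when 25.2% of all genes passed, and 5 and 1 with the fold. TBP-F207L against TBP-Y185C had 2 higher with the deposited log ratios, the series values or median centring, and 0 higher without a dye intercept or with the fold. It had 9 lower with the deposited log ratios, 10 with the series values, 1 without a dye intercept and 1 with the fold. Of all genes, 37.2% passed in this comparison in the main fit. The share was 22.6% with the deposited log ratios, 23.4% with the series values, 21.8% with median centring and 1.85% without a dye intercept. Leaving out an array gave 1 to 3 higher and 6 to 18 lower there. Median centring turned HOM6 in TBP-F207L to -0.13, MET22 in TBP-Y185C against mot1-14 to 0.00026, and HOM2 in TBP-F207L against TBP-Y185C to -0.0397. The slide as a block was not run, since each slide held 1 mutant. No paired analysis was possible because the number of an array in its pair stands for the dye orientation alone.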

Other observations

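Neighbouring genes of S-adenosylmethionine and S-methylmethionine use were low in all mutants. SAM4 and SAM3 are next to each other in the reference annotation (assembly R64), as are MMP1 and MHT1. These pairs were chosen after their values were seen. MHT1, the S-methylmethionine homocysteine methyltransferase, fell to -0.60, -0.52 and -0.38 in mot1-14, TBP-Y185C and TBP-F207L, beside MMP1 at -0.47, -0.34 and -0.55. SAM3 was lower in TBP-F207L than in TBP-Y185C by a difference of -0.49 (adjusted p = 0.00134), while its neighbour SAM4 differed by 0.11 (adjusted p = 0.141).

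Thioredoxin genes moved in opposite directions. TRX2 rose by 0.46, 0.89 and 0.46 in mot1-14, TBP-Y185C and TBP-F207L, and TRX1 fell to -0.36, -0.49 and -0.53. Both proteins can serve as the electron donor of Met16, and this pair too was chosen after its values were seen.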
